A study of Mus musculus with 8 samples.

Results

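The HoxA and HoxD clusters are the neighbouring groups of homeobox genes on mouse chromosomes 6 and 2. Methylation along both was read from reduced representation bisulfite sequencing (RRBS), where MspI cuts DNA at CCGG and bisulfite makes unmethylated cytosines read as thymine. The members were all CpG positions between chr6:52100001-52215000 (HoxA) and chr2:74490001-74610000 (HoxD) of genome build mm9 that had at least 10 reads in each of 8 libraries. They numbered 829 in HoxA and 1003 in HoxD, or 1832 of the 976938 such positions in all. In each cluster 1515 positions had a read in at least 1 library.

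Kidney cortex with outer medulla of wild-type male C57BL/6J mice was the source of the DNA. The ages of the mice and the cells that the tissue held were not given, and methylation tables hold no marker RNA with which to check the tissue. In mice with unilateral ureteral obstruction (UUO), a model of kidney fibrosis, the left ureter was tied and cut. The groups were UUO for 7 days with intraperitoneal 5AZA at 1 mg per kg per day (2 libraries, called 5AZA), UUO for 7 days alone (2 libraries), and a sham operation for UUO (1 library). The other groups were bilateral kidney ischemia of 25 minutes followed by 1 week of reperfusion, the same followed by 1 month, and a sham operation for ischemia (1 library each). Which mice gave the libraries of a pair was not stated, so p-values and SDs describe only the spread between these libraries, which may be technical, and the 4 single libraries have no replicate check. Summed over CpGs, the libraries had 57740933 to 86149864 reads, and their median depth at the member positions was 47 to 74 reads.

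Hox genes encode homeodomain transcription factors that pattern the body axis, and their order along a cluster matches the order of the body regions in which they act. The anterior genes, such as Hoxd1, lie at one end and the posterior genes, such as Hoxa13 and Hoxd13, at the other, and Hoxa11 and Hoxd11 are needed in mice for the outgrowth of the kidney. Hox clusters are dense in CpG islands, stretches rich in CpG that carry little methylation in most tissues, and gain of methylation in them is common in tumours. In mouse, HoxA runs with its anterior genes at the low coordinates and HoxD with its posterior genes there. 5AZA is named as the labels spell it; azacytidine drugs are cytosine analogues that block DNA methyltransferases.

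Genes were located through their promoters. A promoter sequence from RefSeq (GRCm38.p6 table, 250 bases before to 50 after the start of transcription) was placed on the mm9 positions where every measured CpG fell on a CpG of the sequence. Of 21 listed genes (the Hox genes of both clusters and Evx2, a homeobox gene beside Hoxd13), 19 had a sequence in the table and 12 were placed. Of these, 4 were in HoxA (Hoxa5, Hoxa6, Hoxa11 and Hoxa13) and 8 in HoxD (Hoxd1, Hoxd3, Hoxd4, Hoxd9, Hoxd10, Hoxd11 at its second listed start, Hoxd12 and Hoxd13). The 5 sequences below carry the findings, as the promoters at the windows that changed (Hoxa5 and the noncoding RNA gene 5730596B20Rik, added after its values were seen) and promoters at low levels (Hoxa6, Hoxa13, Hoxd1). Capitals mark CCGG, the site MspI cuts. Hoxa5 lay at chr6:52154537-52154836 on the minus strand, Hoxa6 at chr6:52158622-52158921 (minus), Hoxa13 at chr6:52210825-52211124 (minus), 5730596B20Rik at chr6:52126904-52127203 (plus) and Hoxd1 at chr2:74600787-74601086 (plus).
Hoxa5: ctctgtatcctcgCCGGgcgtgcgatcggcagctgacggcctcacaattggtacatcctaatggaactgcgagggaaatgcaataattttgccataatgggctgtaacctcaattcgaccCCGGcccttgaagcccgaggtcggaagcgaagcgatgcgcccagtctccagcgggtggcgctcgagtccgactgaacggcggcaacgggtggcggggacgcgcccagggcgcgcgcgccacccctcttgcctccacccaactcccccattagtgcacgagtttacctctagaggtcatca
5730596B20Rik: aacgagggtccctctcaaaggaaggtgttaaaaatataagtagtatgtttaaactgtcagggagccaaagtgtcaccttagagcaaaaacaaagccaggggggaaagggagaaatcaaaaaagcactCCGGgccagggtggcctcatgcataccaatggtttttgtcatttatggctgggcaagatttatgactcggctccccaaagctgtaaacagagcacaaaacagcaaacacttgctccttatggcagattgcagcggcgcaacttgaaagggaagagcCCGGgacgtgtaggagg
Hoxa6: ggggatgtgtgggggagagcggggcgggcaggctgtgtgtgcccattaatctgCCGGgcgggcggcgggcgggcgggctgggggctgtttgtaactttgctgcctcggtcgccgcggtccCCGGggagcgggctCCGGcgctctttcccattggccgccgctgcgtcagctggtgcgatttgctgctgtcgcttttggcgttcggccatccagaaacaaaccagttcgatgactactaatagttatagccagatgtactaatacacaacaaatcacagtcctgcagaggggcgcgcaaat
Hoxa13: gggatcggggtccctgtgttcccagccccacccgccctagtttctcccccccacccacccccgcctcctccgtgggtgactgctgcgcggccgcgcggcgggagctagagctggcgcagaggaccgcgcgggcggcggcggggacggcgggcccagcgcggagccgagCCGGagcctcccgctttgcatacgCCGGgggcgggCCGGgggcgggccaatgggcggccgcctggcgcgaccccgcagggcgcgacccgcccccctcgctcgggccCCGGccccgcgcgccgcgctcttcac
Hoxd1: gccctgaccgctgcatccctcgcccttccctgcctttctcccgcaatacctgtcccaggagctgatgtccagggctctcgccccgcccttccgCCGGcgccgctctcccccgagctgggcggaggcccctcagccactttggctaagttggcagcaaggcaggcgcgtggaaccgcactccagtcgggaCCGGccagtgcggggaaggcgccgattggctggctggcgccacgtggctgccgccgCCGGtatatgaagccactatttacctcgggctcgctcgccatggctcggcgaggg

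In these promoters the CpG inside CCGG read as methylated in every library, whatever its neighbours did. Over the 23 measured CpGs of CCGG in the placed promoters of listed genes, the mean level was 77.7 and 76.7% with 5AZA, 78.8 and 77.2% in UUO and 77.0% in the UUO sham. It was 71.6% at 1 week and 74.0% at 1 month after ischemia, and 73.8% in the ischemia sham. Single CCGG sites averaged 62.4 to 98.5% over the 8 libraries, while the 67 other CpGs that lay inside fragments averaged 2.19 to 5.90% in the UUO series and 1.60 to 2.25% in the ischemia series. CCGG occurs in 52.8% of the 32851 promoters of the table, so the site is common. Per the labels' protocols the cut ends, which lie at CCGG, were filled in with nucleotides that included methylated dCTP. The share of the CCGG reading that this filling gave was not tested.

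All 23 of those CCGG sites lay where the read depth changed or the next CpG was far away. Such positions were set aside across both clusters. Each position was compared with its nearest CpG on each side, among CpGs with at least 40 reads in total. The depth differences between them were summed over libraries without sign and divided by the larger of their summed depths. A position was called a step when, on either side, this share was over 10% or the CpG lay over 250 bp away. Steps made up 436 of 829 positions in HoxA (52.6%) and 484 of 1003 in HoxD (48.3%), against 58% in the whole series. In HoxA, step positions averaged 41.9 to 46.7% per library and positions inside fragments 7.50 to 11.5%, and in HoxD the ranges were 39.0 to 43.0% and 7.26 to 9.65%. The steps were of mixed kind. In HoxA 219 of them averaged 50% or more over the libraries and lay at 74.1 to 78.6% per library, while the other 217 lay at 9.11 to 14.4%. Everything below is for positions inside fragments unless it says otherwise.

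**Figure D1:**
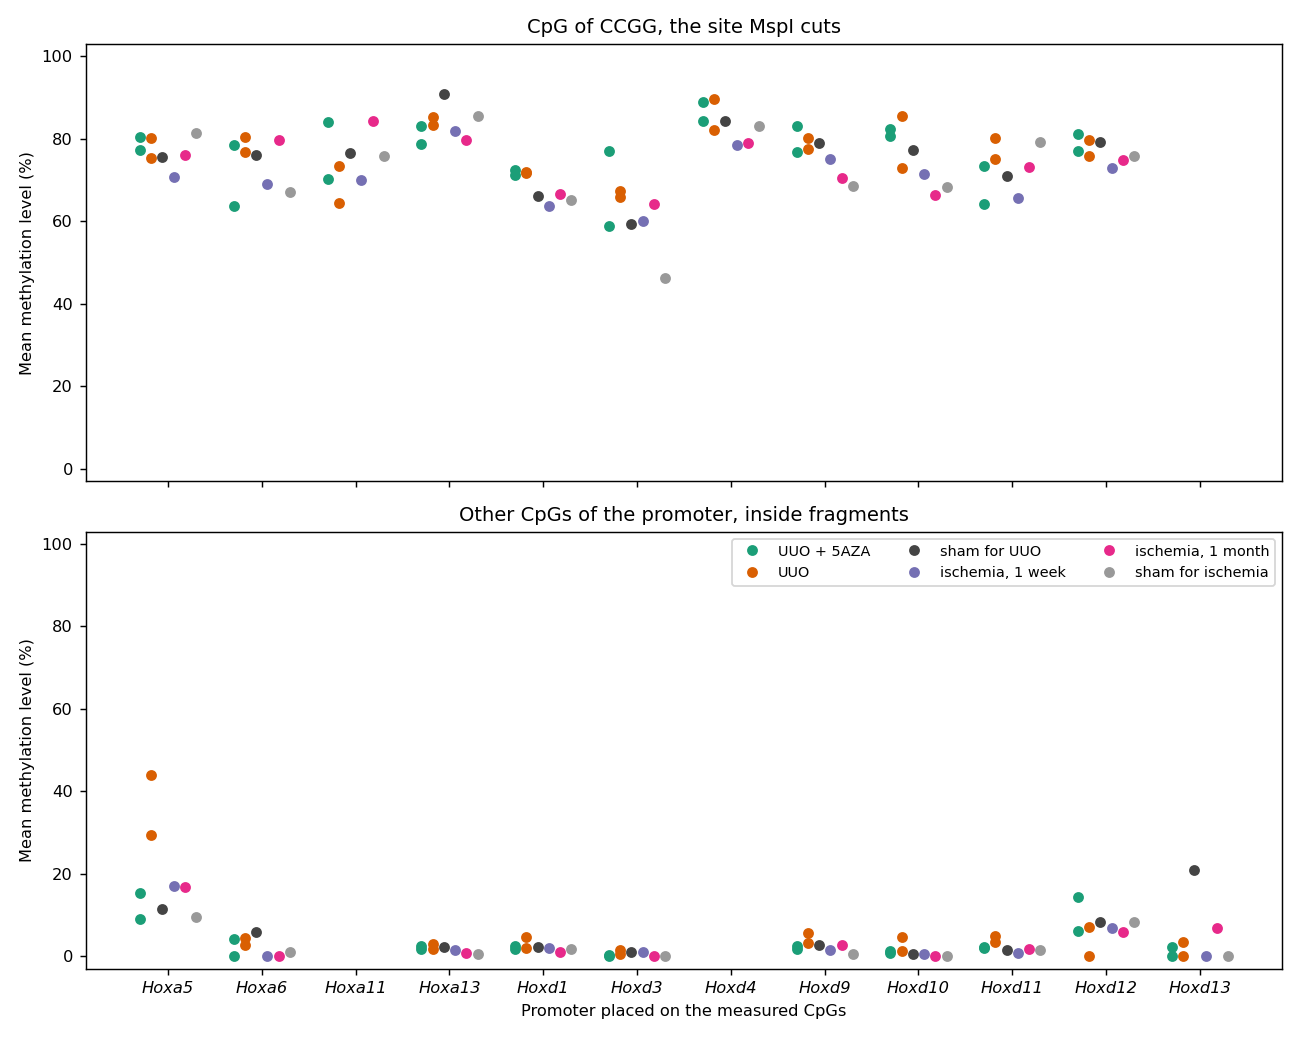
Mean methylation level (%) of the CpGs of CCGG (top) and of the other CpGs inside fragments (bottom) in the placed promoters, 1 point per library. The CCGG sites lie between 46.2 and 90.8% in every library, and the other CpGs lie at or below 5.98% except at Hoxa5 and at Hoxd12 and Hoxd13, which have 1 such CpG each.

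By mean level, both clusters were far less methylated than the measured genome. Inside fragments, HoxA averaged 9.12 and 8.27% with 5AZA, 10.9 and 11.5% in UUO and 8.93% in the UUO sham, and 8.11, 8.81 and 7.50% at 1 week, at 1 month and in the ischemia sham. HoxD averaged 8.22 and 8.41% with 5AZA, 9.09 and 9.65% in UUO and 8.95% in the UUO sham, and 7.26, 8.01 and 7.47% at 1 week, at 1 month and in the ischemia sham. All 410700 positions inside fragments averaged 20.5 to 22.7% per library. Few Hox positions were fully methylated: in the UUO sham 6 of 393 in HoxA (1.53%) and 5 of 519 in HoxD (0.963%) were at 70% or more, against 18.6% in the series. Intermediate levels were more frequent than in the series, with 15.5% of HoxA and 15.0% of HoxD positions at 10 to 30% in that sham, against 4.67%. The share below 10% was nearer that of the series, at 76.8% in HoxA and 76.3% in HoxD in that sham, against 70.6%. In the UUO libraries it was 68.4 and 67.7% in HoxA, against 69.7 and 69.6% in the series. These shares describe positions, many of which share reads, and were not tested.

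Along HoxA, methylated stretches stood between low promoters. In 10 kb segments counted from the first base of the region, the longest low stretch lay beyond the Hoxa6 promoter, at chr6:52160001-52190000, where all libraries were between 0.36 and 4.35% in each segment. The RefSeq gene order puts Hoxa7, Hoxa9 and Hoxa10 between the Hoxa6 and Hoxa11 promoters. The anterior side, up to Hoxa6, was uneven. Windows of 1000 bp that were at 50% or more in both shams lay at chr6:52118001-52121000 (2 windows, 9 positions) and chr6:52150001-52151000 (1 window, 3 positions). The window at 52150001 was the highest of HoxA, with 68.8 and 77.0% with 5AZA, 75.4 and 74.2% in UUO, 69.3% in the UUO sham, 74.7% at 1 week, 84.8% at 1 month and 73.0% in the ischemia sham. No window of HoxD was at 50% or more in both shams.

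Along HoxD, the segments with the highest means lay between the Hoxd4 and Hoxd1 promoters. The segment chr2:74560001-74570000 was at 36.9 to 46.1% over the libraries (8 positions), the next at 25.8 to 34.0% and the one after it at 19.8 to 28.3%. RefSeq lists Mir10b, a microRNA gene, and the noncoding transcript Haglr in this interval. The remaining segments lay at or below 12.4%, apart from chr2:74510001-74520000 next to the Hoxd12 promoter, at 15.8 to 24.2%. Single windows outside these segments were also high: chr2:74538001-74539000 and chr2:74539001-74540000, between the Hoxd9 and Hoxd3 promoters, were at 49.4 and 47.7% in the UUO sham over 4 and 3 positions.

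**Figure D2:**
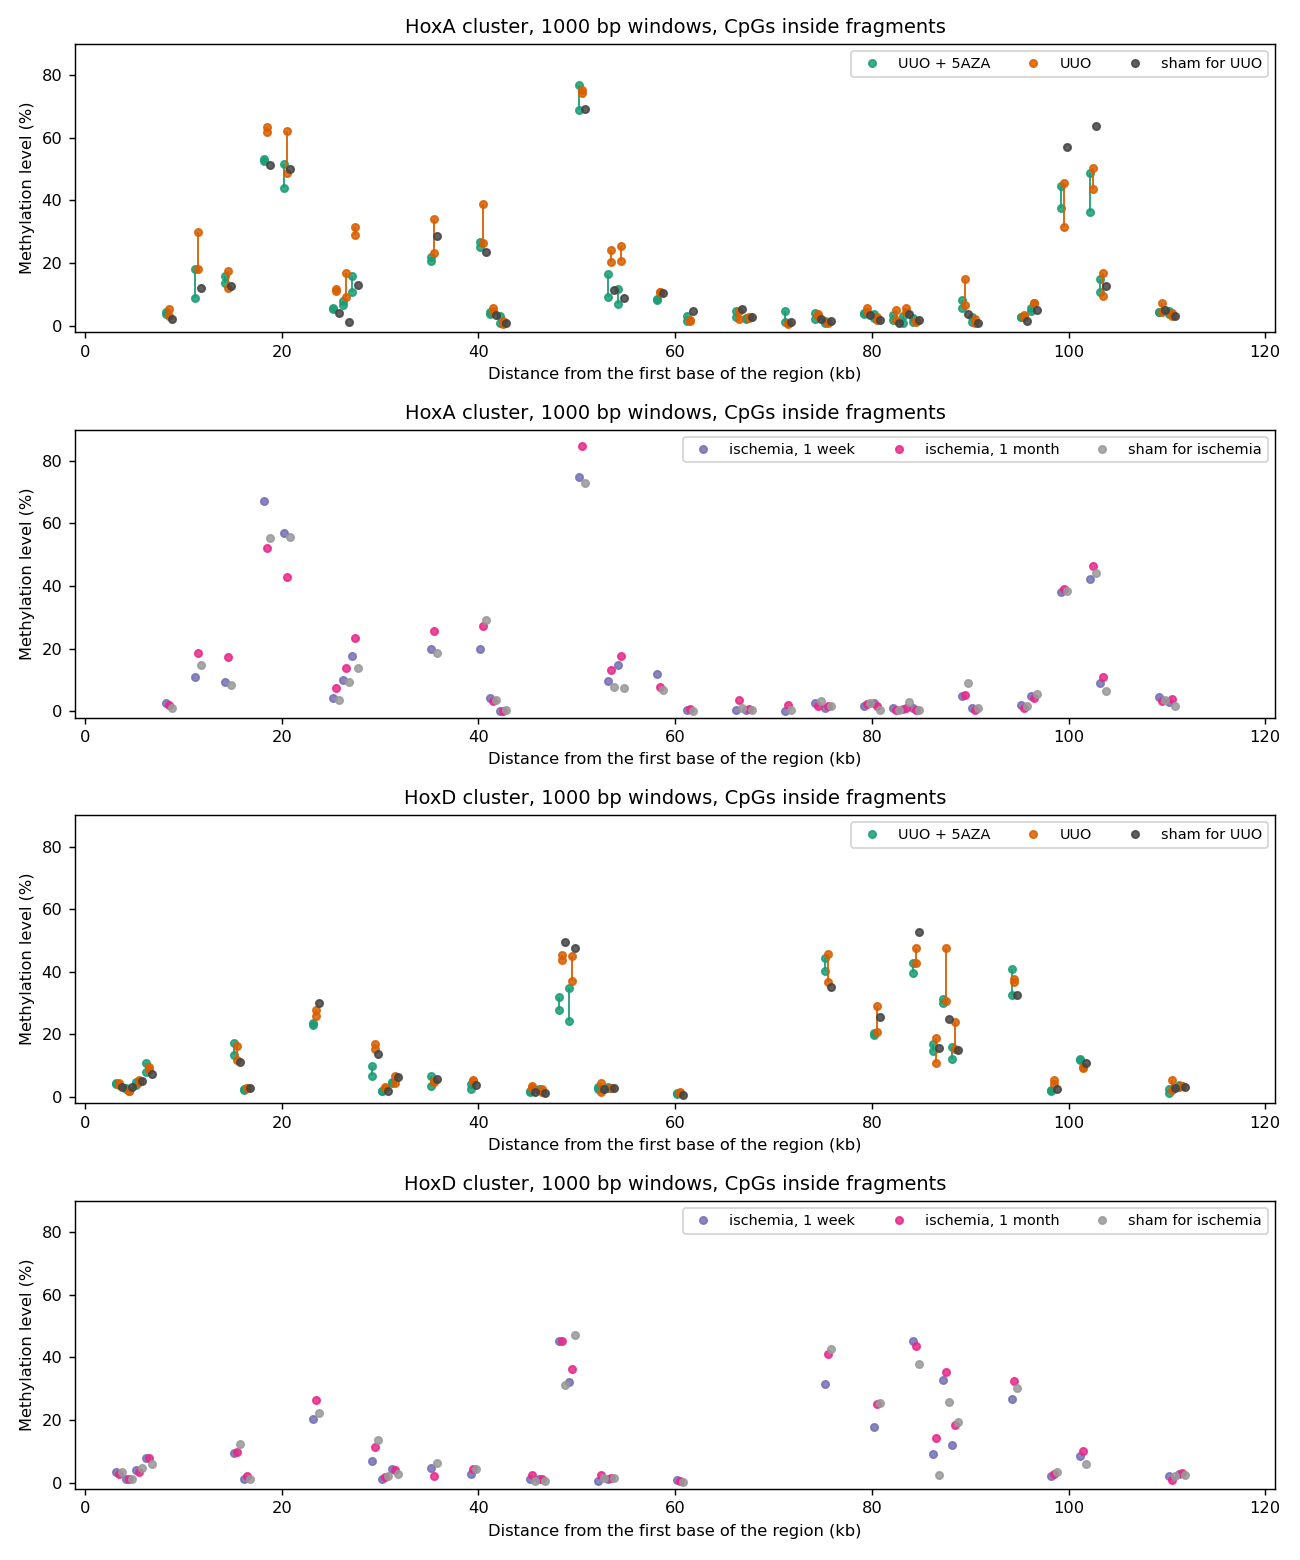
Methylation level (%) inside fragments of each 1000 bp window with at least 3 positions, against the distance (kb) from the first base of the region, 1 point per library. Lines join the lowest and highest library of a pair. Up to the Hoxa6 promoter both UUO libraries lie above all others in 5 of 16 windows, the Hoxa5 window among them. This stretch was chosen after the profile was seen, and the count was not made over all windows.

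The first comparison asked how methylation differed between UUO and its sham. HoxA was higher in UUO, more so on the anterior side, where only the window at the Hoxa5 promoter was called, as defined below. HoxD was not clearly moved. The HoxA mean was 11.2% ± 0.463 (SD, n = 2) in UUO, against 8.93% in the UUO sham. This difference of 2.28 points exceeded both the spread of the UUO pair and the 1.42 points between the UUO sham and the ischemia sham. The HoxD mean was 9.37% ± 0.396 (SD, n = 2) in UUO and 8.95% in the sham. That difference of 0.42 points was smaller than the 1.48 points between the shams. Over all positions inside fragments UUO was 0.77 points above its sham and the shams were 0.92 points apart. These means have 1 library on the sham side and were not tested. The tissue holds many cell types, so another mix of cells and another level within cells cannot be told apart.

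Windows of 1000 bp with at least 3 positions were tested across the genome with a moderated quasi-binomial model on methylated and total reads, adjusted by Benjamini-Hochberg over 33656 windows, and called at an adjusted p under 0.05 and at least 10 points. HoxA held 36 tested windows and HoxD 30. In UUO against its sham 1 of the 66 was called, in HoxA and higher, where 0.187% of all windows were called. At an unadjusted p under 0.05, 11 of 36 HoxA windows were higher (30.6%) and 3 lower (8.33%), against 6.42 and 1.59% of all windows. In HoxD 1 of 30 was higher and 2 were lower, and the smallest adjusted p was 0.272. Neighbouring windows of 1 cluster are not independent, so these shares are a description.

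The called window, chr6:52154001-52155000, holds the Hoxa5 promoter printed above. Hoxa5 acts in the patterning of the cervical and thoracic skeleton and of the lung in mice. The level was 20.7 and 25.6% in the UUO libraries and 8.85% in the UUO sham (exact binomial 95% interval 7.22 to 10.7% for that library, counting error only). A read covering several CpGs was counted at each, so this interval is too narrow. Both UUO libraries were above the sham at each of the 17 CpGs of the window, and above both shams at 16. The difference was 14.30 points (SE 2.10, adjusted p = 0.0207 by the quasi-binomial model). Each library had 985 to 1639 reads summed over these CpGs.

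The higher level lay on both sides of the start of Hoxa5 transcription, placed at position 52154586. The 4 CpGs before the start, 134 to 227 bp away, averaged 29.5 and 44.0% in UUO and 11.5% in the sham. The 13 after the start, 378 to 536 bp into the gene, averaged 20.1 and 25.5% in UUO and 8.62% in the sham. The next window, chosen after its values were seen, held 10 CpGs 588 to 734 bp into the gene, at 20.6 and 24.4% in UUO and 11.8% in the sham (adjusted p = 0.187 for the window by the quasi-binomial model, not called). The 4 CpGs before the start lie between the CCGG sites of the printed sequence and were covered by 451 to 454 reads each over the 8 libraries, so they largely share reads. Those CCGG sites themselves averaged 75.4 and 80.2% in UUO and 75.7% in the sham, and the groups overlapped there.

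**Figure D3:**
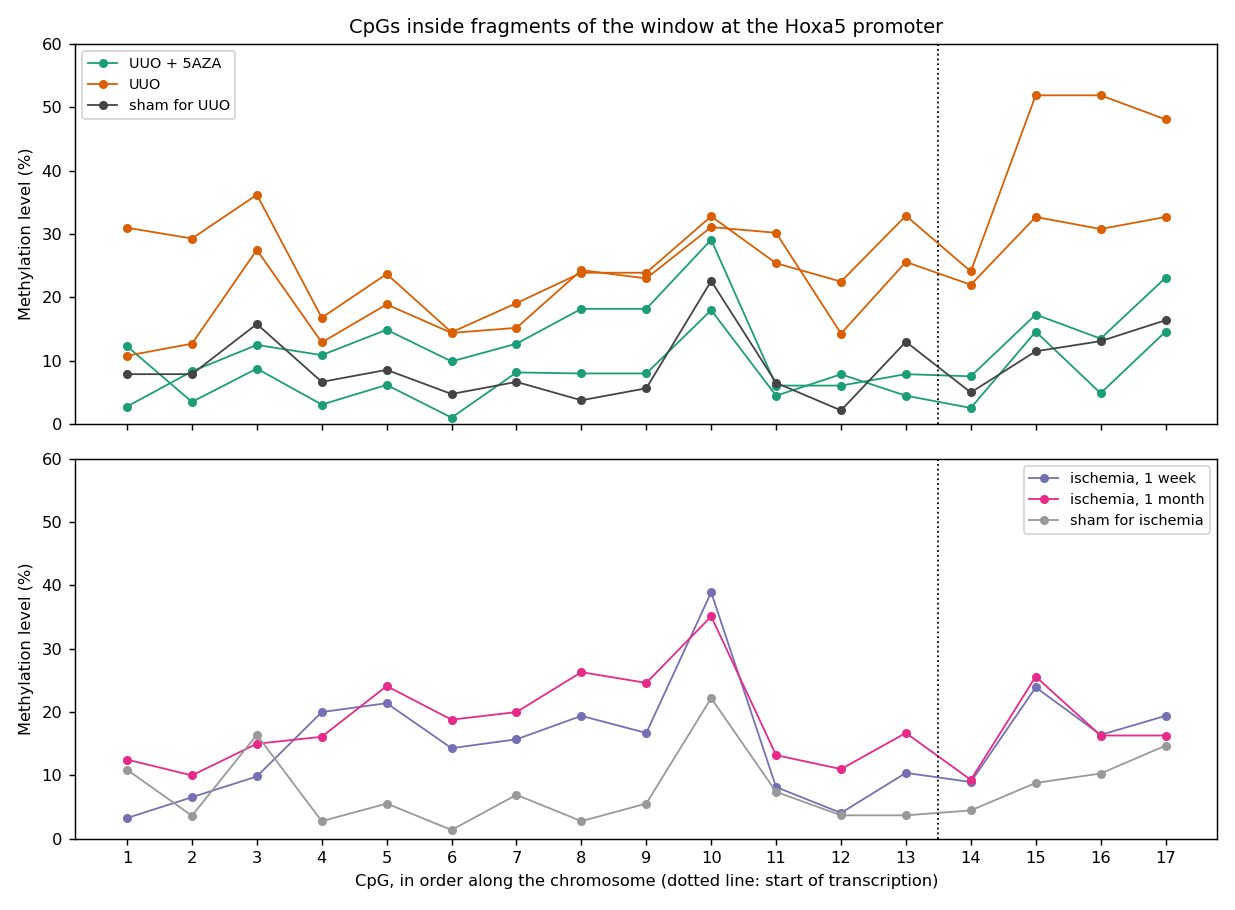
Methylation level (%) of the 17 CpGs inside fragments in the window at the Hoxa5 promoter, in chromosome order, 1 line per library. The gene runs to the left of the dotted line. UUO lies above its sham at all 17 CpGs, the 5AZA libraries lie near that sham, and both ischemia libraries lie above their sham at most CpGs.

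The largest rise on HoxA by value was in chr6:52127001-52128000, which takes in the end of the printed 5730596B20Rik sequence, the promoter of a long noncoding RNA that RefSeq lists within the span of Hoxa3. The window had 31.5 and 29.1% in UUO and 13.1% in the UUO sham over 5 CpGs, and both UUO libraries were higher at all 5. The CpGs at 52127163 and 52127166 lie on the printed sequence and differed by 11 and 10.3 points. Those at 52127512, 52127530 and 52127583, past its end, differed by 13.7, 21.1 and 26.5 points. The difference of 17.14 points (SE 3.78) was not called (adjusted p = 0.109 by the quasi-binomial model). Nearby, chr6:52125001-52126000, a window chosen after its values were seen, had 10.9 and 11.8% in UUO and 4.12% in the sham over 16 CpGs, with an adjusted p of 0.0621 in the quasi-binomial model. The window between them, also chosen after its values were seen, had 16.9 and 9.21% in UUO and 1.23% in the UUO sham over 5 CpGs. It was not called (adjusted p = 0.199 by the quasi-binomial model). This rise rested on a low UUO sham: the ischemia sham was at 9.30% there, between the UUO values. Another large rise by value, at chr6:52111001-52112000, had 18.1 and 30.1% in UUO and 12.2% in the sham and an adjusted p of 0.684 in the quasi-binomial model.

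Windows higher in UUO made up a larger share of the anterior side than of the rest of HoxA. Over all of HoxA 27 of 36 windows were higher in UUO (75%) and over HoxD 20 of 30 (66.7%), against 62.7% of all windows. Both UUO libraries were above the sham in 21 HoxA windows (58.3%), in 16 HoxD windows (53.3%) and in 44.8% of all windows. Up to the Hoxa6 promoter 15 of 16 windows were higher in UUO, with a median difference of 6.36 points, and in 12 both UUO libraries were above the sham. Beyond it 12 of 20 were higher, with a median of 0.55 points. The place of this division was chosen after the profile was seen, so it has no test. The median difference was 1.47 points in HoxA, 0.52 in HoxD and 0.40 over all windows. Differences varied with level, and windows up to Hoxa6 averaged 18.98% in the UUO sham, against 9.09% beyond it. Among windows under 10% in the ischemia sham the medians were 1.12 in HoxA, 0.42 in HoxD and 0.31 over all windows. At 10 to 30% they were 10.55 (4 windows), 2.58 (6 windows) and 3.40. At 30% or more they were 5.44 (5 windows), -4.82 (5 windows) and 0.80. The sides were not matched for level, and these medians were not tested. HoxA windows held a median of 6.5 positions, HoxD windows 11 and all windows 6.

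The largest falls in UUO on HoxA rested on a high UUO sham. At chr6:52199001-52200000, between the Hoxa11 and Hoxa13 promoters, UUO had 45.6 and 31.6% and its sham 57.1%. At chr6:52202001-52203000 UUO had 43.5 and 50.4% and its sham 63.7%. The ischemia sham was at 38.3% and 44.3% in these windows, between the UUO values. The differences of -18.52 and -16.72 points were not called (adjusted p = 0.296 and 0.359 by the quasi-binomial model). At chr6:52161001-52162000, 11 CpGs were at 1.85 and 1.42% in UUO and 4.81% in the sham, a difference of -3.17 points that was not called (adjusted p = 0.426 by the quasi-binomial model).

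In HoxD the windows with the largest differences did not pass the test. The largest rise by value, at chr2:74577001-74578000, had 30.5 and 47.6% in UUO and 25.0% in the sham, a difference of 14.05 points over 3 CpGs (adjusted p = 0.745 by the quasi-binomial model), so the UUO pair was farther apart than the groups. Rises at chr2:74565001-74566000 (5.92 points) and chr2:74578001-74579000 (4.77 points), and falls at chr2:74574001-74575000 (-7.38), chr2:74539001-74540000 (-6.70) and chr2:74538001-74539000 (-4.82), had adjusted p values of 0.472 to 0.92 in that model. In most placed HoxD promoters, CpGs outside CCGG were low in both groups. At Hoxd11, whose product acts in kidney and limb development, 15 CpGs averaged 4.99 and 3.60% in UUO and 1.54% in the sham. At Hoxd1, an anterior gene, 12 CpGs averaged 2.05 and 4.83% in UUO and 2.35% in the sham. Hoxd3, Hoxd9 and Hoxd10, which act in the axial skeleton or the limbs, lay between 0.532 and 5.68% in UUO and between 0.680 and 2.73% in the sham, over 3 or 4 CpGs each. Hoxd13 and Hoxd12, limb genes, had 1 CpG each inside fragments. That of Hoxd13 was at 3.49 and 0% in UUO, 21.1% in the UUO sham and 0% in the ischemia sham. That of Hoxd12 was at 7.14 and 0% in UUO and 8.33% in either sham. The 5 steps of Hoxd12 outside CCGG averaged 33.6 and 30.6% in UUO, 37.6% in the UUO sham and 24.6% in the ischemia sham. Hoxd4, a gene of the cervical vertebrae in mice, had 1 CpG outside CCGG with at least 10 reads in every library. That CpG, a step, was at 37.2 and 42.1% in UUO, 63.6% in the UUO sham and 22.5% in the ischemia sham, so the UUO values lay between the shams.

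The other placed HoxA promoters did not share the level of Hoxa5. At Hoxa6, the neighbour of Hoxa5 and likewise a gene of axial patterning, 5 CpGs outside CCGG averaged 2.81 and 4.42% in UUO and 5.98% in the sham. At Hoxa13, a gene of limb and urogenital development, 18 such CpGs averaged 1.77 and 3.12% in UUO and 2.21% in the sham. Of 7 measured CpGs on the Hoxa11 sequence only 1, in a CCGG site, had at least 10 reads in every library.

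The next comparison asked how methylation in UUO differed with 5AZA. Levels were lower with 5AZA at the Hoxa5 and 5730596B20Rik windows, where they came near the UUO sham. Both comparisons use the same UUO libraries, so they are not independent. With 5AZA the HoxA mean was 8.70% ± 0.598, against 11.2% ± 0.463 in UUO (SD, n = 2 each), a difference of -2.51 points. The HoxD mean was 8.32% ± 0.137 under 5AZA, against 9.37% ± 0.396 in UUO (SD, n = 2 each), a difference of -1.06 points. The pairs did not overlap in either cluster. The two-sided exact permutation p was 0.333 for each, the smallest that 2 against 2 libraries allow. Over all positions inside fragments the difference was -1.96 points.

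Of the 66 windows 2 were called, both in HoxA and lower, where 0.847% of all windows were called. The Hoxa5 window had 11.7 and 6.94% with 5AZA and 20.7 and 25.6% in UUO. At 16 of its 17 CpGs both 5AZA values were below both UUO values. The difference was -13.82 points (SE 1.76, adjusted p = 0.0018 by the quasi-binomial model). Before the start of Hoxa5 the 4 CpGs averaged 15.3 and 9.18% with 5AZA and 29.5 and 44.0% in UUO. After it the 13 CpGs averaged 12.1 and 7.22% with 5AZA and 20.1 and 25.5% in UUO. The UUO sham, at 11.5% before and 8.62% after the start, lay between the 5AZA libraries in both parts.

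The other called window, chr6:52127001-52128000 at 5730596B20Rik, had 15.7 and 10.8% with 5AZA and 31.5 and 29.1% in UUO, with no overlap at any of 5 CpGs. The difference was -17.00 points (SE 3.34, adjusted p = 0.0286 by the quasi-binomial model). CpGs on the printed sequence differed by -5.88 and -10.3 points, and those past its end by -16.3, -19.4 and -23.3. At chr6:52125001-52126000 the libraries had 5.62 and 5.36% with 5AZA and 10.9 and 11.8% in UUO, which passed the test (adjusted p = 0.0318 by the quasi-binomial model) but not the limit of 10 points. Leaving out any 1 of the 4 libraries of both pairs ended the calls of the Hoxa5 and 5730596B20Rik windows, in both comparisons where they were made, with adjusted p values of 0.0571 to 0.376 by the quasi-binomial model with 1 pair left to give the spread. With step positions kept, 97 windows of the clusters were tested. In 5AZA against UUO the same 2 windows were called (-11.98 points, adjusted p = 0.0238, and -11.31 points, adjusted p = 0.0482, by the quasi-binomial model), where 0.361% of all windows were, and in UUO against its sham none was, where 0.0181% were. At an unadjusted p under 0.05 the UUO comparison then had 8 HoxA and 3 HoxD windows higher and 3 and 2 lower, against 5.62% of all windows higher and 2.51% lower, and limma on log2 ratios called none either.

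The lower level with 5AZA was not limited to the called windows. On the anterior side of HoxA, up to Hoxa6, 14 of 16 windows were lower with 5AZA, the 2 called ones among them. Their side had a median difference of -6.29 points, and in 10 windows both 5AZA libraries were below both UUO libraries. Beyond Hoxa6 11 of 20 were lower, with a median of -0.24 points. This division was chosen after the UUO levels were seen, and the same UUO libraries enter here, so a fall on that side is partly given by the choice. Of all windows under 10% in the ischemia sham 11924 of 20031 were lower, at 10 to 30% 1424 of 1749, and at 30% or more 10828 of 11876. Over the clusters 25 of 36 HoxA windows (69.4%) and 20 of 30 HoxD windows (66.7%) were lower, against 71.8% of all windows. The pairs did not overlap in 13 HoxA windows (36.1%) and 12 HoxD windows (40%) that were lower, against 39.8% of all windows. At an unadjusted p under 0.05, 8 HoxA windows were lower (22.2%) and 5 HoxD windows (16.7%), against 16.8% of all windows, while 1 HoxD window was higher, against 1.25% of all. Hox windows were mostly low, and the shares differed by level. Among windows under 10% in the ischemia sham, the pairs did not overlap, with 5AZA lower, in 33.3% of 27 in HoxA and 31.6% of 19 in HoxD, against 23.8% of all windows at that level. At 30% or more this was so in 20% of 5 windows in HoxA and 60% of 5 in HoxD, against 65.1% of all, and at 10 to 30% in 75% of 4 and 50% of 6, against 51.1% of all. These windows are few and the shares were not tested.

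HoxD had no called window with 5AZA, and its smallest adjusted p was 0.11 in the quasi-binomial model. Its largest falls were at neighbouring windows between the Hoxd9 and Hoxd3 promoters. At chr2:74538001-74539000 the libraries had 31.9 and 27.6% with 5AZA and 43.9 and 45.4% in UUO (-14.85 points, adjusted p = 0.201 by the quasi-binomial model). At chr2:74539001-74540000 they had 34.9 and 24.2% with 5AZA and 37.1 and 45.0% in UUO (-11.50 points, adjusted p = 0.3 by the quasi-binomial model). The pairs did not overlap in either window. Another fall, at chr2:74577001-74578000, rested on UUO replicate 2: the levels were 31.2 and 30.0% with 5AZA and 30.5 and 47.6% in UUO, and without that library the difference was 0.08 points instead of -8.45. The largest rises with 5AZA were small in both clusters, at most 2.54 points in HoxA and 2.65 in HoxD, and none was called.

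**Figure D4:**
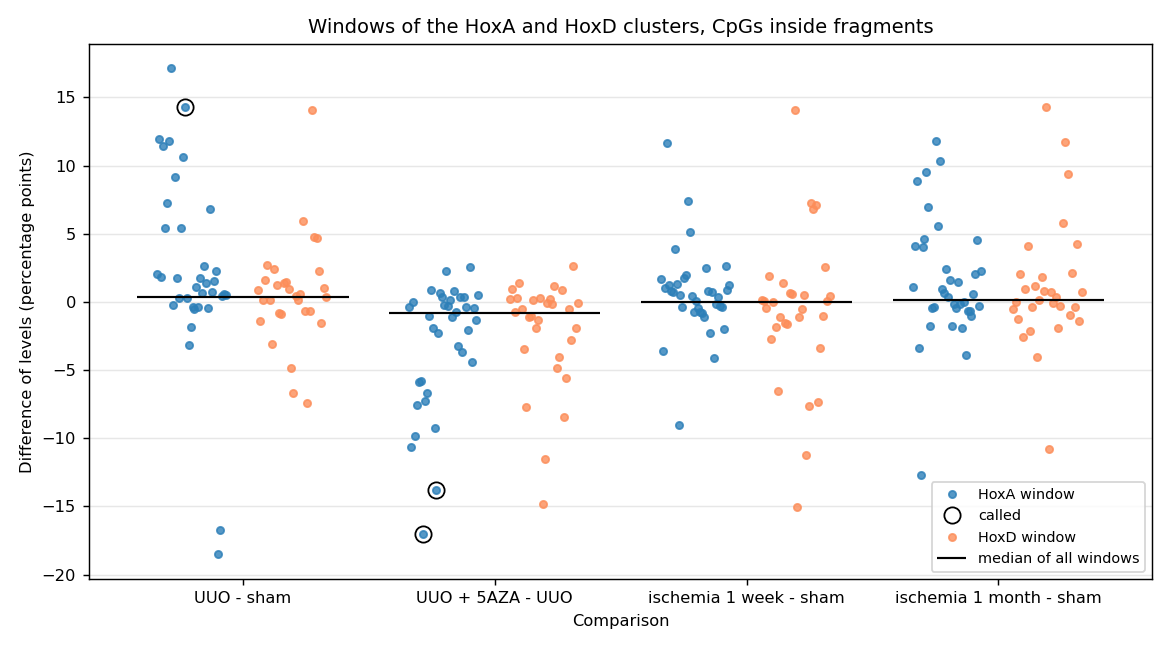
Difference of levels (percentage points) for each tested window of HoxA and HoxD in 4 comparisons, with the median of all windows as a black line and called windows ringed. The 2 ringed windows with 5AZA are at -17.00 and -13.82 points and the ringed window in UUO is at 14.30.

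The last comparisons asked how methylation differed from the sham at 1 week and 1 month after ischemia. No window of either cluster was called at either time by the quasi-binomial model, where 0.00594% of all windows were at 1 week and 0.0297% at 1 month, and none by Fisher's exact test at 25 points and an adjusted p under 0.01, where 0.0862% of all windows were at 1 week and 0.131% at 1 month. At an unadjusted p under 0.05, 3 HoxA windows were higher at 1 week and 5 at 1 month and none was lower, against 2.35 and 3.98% of all windows higher. In HoxD 2 were lower at 1 week, and 2 higher and 1 lower at 1 month, against 2.4 and 2.28% of all windows lower. The HoxA means were 8.11% at 1 week and 8.81% at 1 month, against 7.50% in the ischemia sham, and both differences were smaller than the 1.42 points between the shams.

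The Hoxa5 window was again among the higher ones. It had 14.8% at 1 week (exact binomial 95% interval 12.7 to 17.2%, counting error only) and 17.8% at 1 month (15.9 to 19.8%), against 7.44% in the ischemia sham (5.89 to 9.26%). These intervals are too narrow, because a read covering several CpGs was counted at each. The 1-week library was above the sham at 15 of 17 CpGs and the 1-month library at 16. The differences of 7.38 and 10.34 points were not called (unadjusted p = 0.00927 and 0.000554, adjusted p = 0.984 and 0.259, by the quasi-binomial model). With step positions kept, the window differed by 1.66 points at 1 week and 4.95 at 1 month (unadjusted p = 0.443 and 0.0305, adjusted p = 1 for both, by the quasi-binomial model). The 5730596B20Rik window had 17.8% at 1 week and 23.4% at 1 month, against 13.9% in the ischemia sham. At the 4 CpGs before the start of Hoxa5 the levels were 17.2% at 1 week and 16.9% at 1 month, against 9.57% in the ischemia sham, and below both UUO libraries at 29.5 and 44.0%. A difference between the injury models was not tested.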

How the data were processed

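DNA was digested with MspI, repaired with methylated dCTP present, size-selected, treated with bisulfite and amplified, per the labels' protocols. Per the submitters' processing notes, Bowtie and mm9 were used. No source used here names a Bowtie version, a methylation caller or filters. Each deposited table gives, for each CpG of a library, the count of covering reads and the count of methylated reads, made by the authors and not normalized. Each also gives the level as a fraction rounded by the authors to 3 decimals, which was not used in tests. Levels here are methylated over total reads, as percentages.

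Tables were joined with Python 3.11.15, numpy 2.4.6, pandas 2.3.3 and scipy 1.17.1. A position needed 10 reads in every library. It was compared on each side with the nearest CpG that had at least 40 reads in total. Absolute depth differences were summed over the libraries and divided by the larger summed depth of the position and that CpG. The position counted as inside a fragment when, on both sides, this share was at most 10% and the CpG lay within 250 bp. Otherwise it was a step. Methylated and total reads were summed per window of 1000 bp with at least 3 positions. A quasi-binomial model with 1 mean per group was fitted to all 8 libraries. Its Pearson dispersion, from the 2 pairs (2 residual degrees of freedom), was moderated by limma's squeezeVar (version 3.58.1, run in R 4.3.3; 15 prior degrees of freedom inside fragments) and kept at 1 or above. Two-sided F tests were adjusted by Benjamini-Hochberg over all windows, and each single library was taken to vary as the pairs do. The libraries of a pair differed by more than counting noise (mean chi-square per position 1.18 with 5AZA and 1.23 in UUO). Mean levels weight positions equally. The model was also run on simulated reads. Their spread was milder than that of the data (prior dispersion 1.4, against 1.94 inside fragments), so that run does not show how the model performs on these libraries.

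The regions, gene list, tests and rules were chosen with earlier results of these data known. Windows named are those called, the 3 largest rises and 3 largest falls per cluster for UUO and 5AZA, and runs at 50% or more in both shams, besides the placed promoters; others are marked as chosen after their values were seen. Placement by CpG spacing needed at least 4 measured CpGs, all on CpGs of the sequence, at a single best place. It converts no coordinates. Of 16 sequences 15 kept 1 spacing per cluster between builds, 5 of 6 in HoxA and 10 of 10 in HoxD. Hoxa5 was placed on 8 measured CpGs and 5730596B20Rik on 4, the minimum. Intervals are exact binomial at 95%. Reads covering several CpGs were counted at each, and PCR copies were not told apart. Alternatives were other read minimums, window sizes, position minimums, step sizes and minimum differences, limma on log2 ratios (1 added to both read numbers), Fisher's exact test for ischemia, reads pooled over positions, a replicate block, each library left out, and all positions.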

Additional observations from a re-analysis of the deposited data

Results flagged for a closer look

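In 19 of the 66 windows inside fragments (9 of 36 in HoxA and 10 of 30 in HoxD), both UUO libraries lay on one side of their sham and both ischemia libraries on the other side of theirs. The same count was not made over all windows, so it does not set the clusters apart from the rest of the genome. The difference between the models was not tested. The 7 of them that the naming rule picked are given here, and none of the 7 was called in either model. At chr6:52161001-52162000 the UUO difference was -3.17 points, with 0.44 at 1 week and 0.65 at 1 month. At chr2:74505001-74506000 it was 2.72 points, with -2.72 and -2.60. At chr2:74538001-74539000 it was -4.82 points, with 14.11 and 14.31. The UUO sham there was at 49.4% and the ischemia sham at 31.0%. At chr2:74565001-74566000 it was 5.92 points, with -11.19 and -1.90. At chr2:74574001-74575000 it was -7.38 points, with 7.26 and 5.78, the UUO sham being at 52.6% and the ischemia sham at 37.8%. At chr2:74578001-74579000 it was 4.77 points, with -7.30 and -0.94. At chr2:74591001-74592000 it was -1.56 points, with 2.55 and 4.25.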

How the results depend on the processing

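With 2 pairs and 4 single libraries, calls rested on few degrees of freedom, and the single libraries limit every comparison with a sham. Inside fragments, the 1 window called in UUO fell to 0 with limma on log2 ratios, with at least 1 position per window, and with any 1 library of a pair left out (0 in each case). The 2 windows called with 5AZA likewise fell to 0 under these settings and with the replicate block. Other read minimums, window and step sizes gave at least 1 and 2 calls. Same-numbered libraries hardly deviated together (correlation 0.020) and the labels tie the numbers to nothing shared, so the numbers were not taken as pairs; with the replicate block the 5AZA difference at the Hoxa5 window was -13.82 points with an adjusted p of 0.304 (quasi-binomial model). With all positions, 5AZA had 0 calls with limma, with 300 bp windows and with at least 1 position per window, 1 with a read minimum of 20, and 0 to 2 with a library left out. UUO had 0 to 2 calls with a library left out, where the main count was 0. The HoxA difference at 1 week was 0.05 points over all positions, not 0.61. The HoxD difference at 1 week was -0.68 with reads pooled and -0.86 over all positions, not -0.21, and at 1 month -0.09 and 0.10, not 0.54. Some settings were chosen after seeing the data. For these, the range between the lowest and highest HoxD segments was 53.53 points at a read minimum of 20 and 36.11 with steps of 5%, not 40.46. The gap between step and inside positions was 33.00 in HoxA with steps of 5%, not 34.67, and 33.83 and 32.24 in HoxD with steps of 20% and 5%, not 32.99. Leaving out 1 library reversed 5 uncalled differences with 5AZA, which ranged from -4.46 to 9.53 at chr6:52199001-52200000, -0.18 to 1.94 at chr6:52142001-52143000, -16.98 to 0.08 at chr2:74577001-74578000, -0.91 to 3.68 at chr2:74505001-74506000 and -3.29 to 5.67 at chr2:74565001-74566000. Of 208 values for named windows 176 kept direction and call status, 24 kept direction only and 8 reversed. All 24 were lost calls of windows called in the main setting. Most of the 176 came from windows that were not called in the main setting and stayed so, so they do not describe how stable the calls were. The cause of these changes was not tested.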
